A study of Homo sapiens with 4 samples.

Results

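The intervals described here are stretches of the human genome that lay under H3K9me2 peaks in both control libraries of K562 cells and under no peak in either CUX1 knockout library. They were chosen by the deposited peak positions themselves: on chromosomes 1 to 22 without 20, every base covered in control 1 and control 2 and uncovered in knockout 1 and knockout 2 was kept, and runs of such bases of at least 2000 bp became members. The rule gave 12989 control-only intervals, with a summed length of 35.9 Mb, out of 119299 control-only stretches of any length (112 Mb). Over these chromosomes the 4 peak lists divided the covered genome into 1542590 stretches that differed in which libraries covered them. Because presence in the controls and absence in the knockouts chose the members, that difference is a description and was not tested.

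H3K9me2 is histone H3 carrying 2 methyl groups on lysine 9. In mammalian cells it is written mainly by the paired methyltransferases G9a and GLP, spreads over broad, mostly silent domains, and is rich in chromatin at the nuclear lamina. CUX1 is a homeodomain transcription factor whose gene lies in band 7q22.1, within the part of the long arm of chromosome 7 that is often lost in myeloid leukemia. K562 is an established line derived from a human myeloid leukemia.

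The series holds 4 CUT&RUN libraries, an assay that brings a nuclease to marked nucleosomes through an antibody, so that the DNA around them is cut free and sequenced. The 2 controls were K562 cells with a CRISPR guide against HPRT, a gene on the X chromosome, and the 2 knockouts were K562 cells with a CRISPR guide against CUX1. All 4 were untreated otherwise as far as the labels say, and the labels do not state whether cells were clones, pools or separate cultures, so any spread between libraries may be technical. The peak names tag both knockout libraries as a knockdown ("cux1kd") while the labels call them knock-outs, and the labels' word is used here. The names of control 1 carry a further tag, "sub54", that the labels do not explain. The lists hold no measure of CUX1 itself, so the knockout was not checked.

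The libraries differed in how much sequence their lists covered, and this bears on every count below. On the 21 chromosomes used, peaks covered 672 Mb in control 1, 660 Mb in control 2, 413 Mb in knockout 1 and 576 Mb in knockout 2, that is 23.8%, 23.4%, 14.7% and 20.5% of 2818 Mb. Each list held 250000 peaks, and the lists ended at a −log10 p of 1.25, 1.27, 1.49 and 1.35 in the same order. The number of reads behind each list is unknown, and so is the precision it gives.

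Control-only intervals were short pieces of the genome. Their median length was 2549 bp, 90% were shorter than 3716 bp, 3526 of them (27.1%) reached 3000 bp and 232 (1.79%) reached 5000 bp. The longest was 9855 bp. The threshold at 2000 bp cut through a continuous distribution, with 754 intervals in the 50 bp just above it and 844 in the 50 bp just below. The members were 10.9% of all control-only stretches by number and 32.0% by length.

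The same intervals were built from the 4 pairings of a control with a knockout library, each time from bases that both libraries of the pair covered and the other 2 did not. Control 2 with knockout 2 gave 9312 intervals (24.9 Mb) and control 1 with knockout 2 gave 8999 (24.1 Mb). Control 1 with knockout 1 gave 4062 (10.51 Mb) and control 2 with knockout 1 gave 3636 (9.33 Mb). The control-only set was thus 1.44 times as long as the largest cross-group set and 3.85 times as long as the smallest. The 3 largest sets were those that lacked knockout 1, the library that covered the least.

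**Figure D1:**
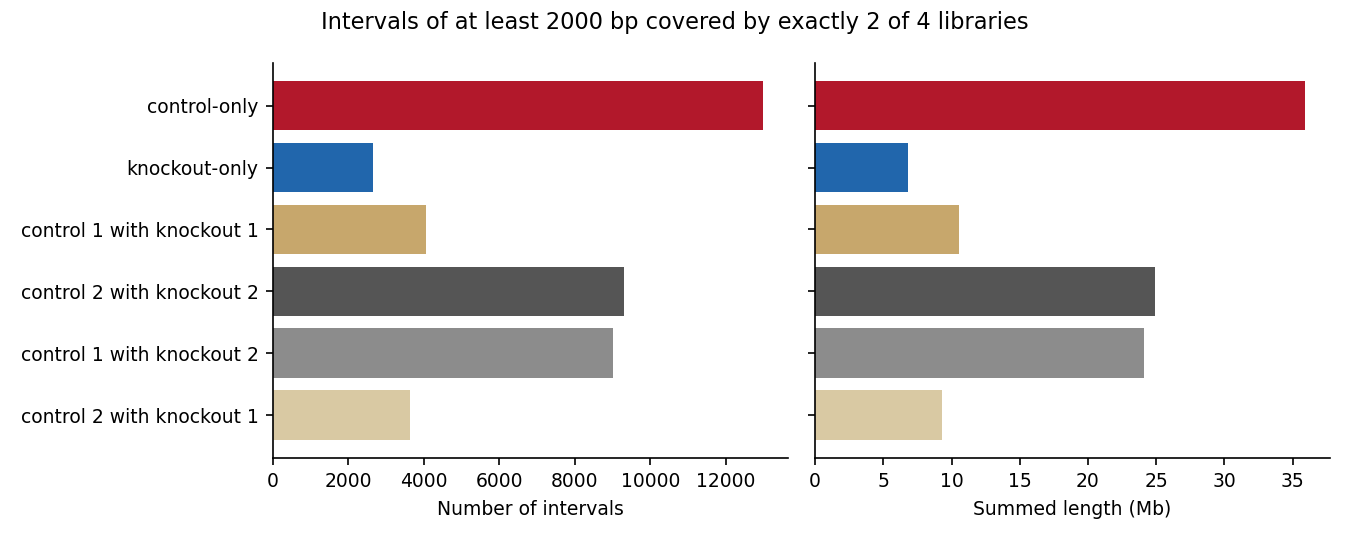
Number (left) and summed length in Mb (right) of intervals of at least 2000 bp covered by exactly 2 of the 4 libraries, for each of the 6 pairs. The control-only bar stands at 12989 intervals and 35.9 Mb, above all 4 cross-group pairs, and the 3 longest bars are the pairs that lack knockout 1.

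The size of the gap between sets grew with interval length. Intervals of at least 5000 bp numbered 232 in the control-only set, 99 and 96 in the pairs with knockout 2, and 20 and 13 in the pairs with knockout 1. The ratio to the largest cross-group set was therefore 1.39 by number over all members and 2.34 among those of 5000 bp or more. No interval can be longer than the peaks that carry it, and the knockout lists held narrower peaks. The median width was 2353 bp in control 1, 2307 bp in control 2, 1342 bp in knockout 1 and 1925 bp in knockout 2. Peak width thus enters these ratios, and how much of them it makes up was not tested. Median lengths differed little, with 2549 bp against 2396 to 2485 bp in the cross-group sets. Of the sequence that both libraries of a pair covered, 44.5% was uncovered in the other 2 libraries for the controls (of 252 Mb) and 40.7% for control 2 with knockout 2 (of 226 Mb).

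**Figure D2:**
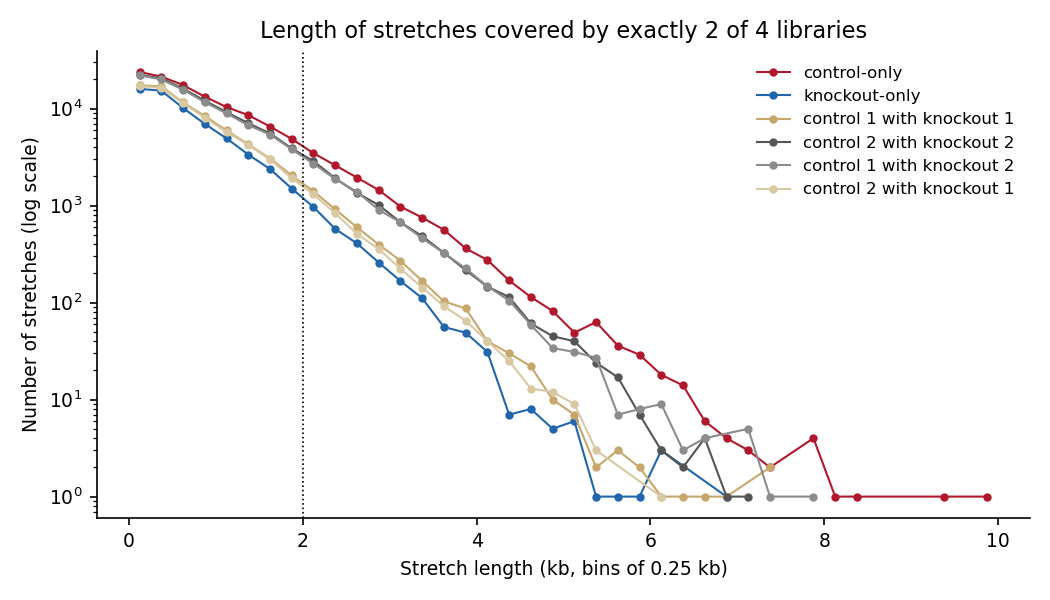
Number of stretches (log scale) in length bins of 0.25 kb for each pair of libraries, before the length limit, which the dotted line marks at 2 kb. The control-only curve falls more slowly than the others, so that its distance to them widens from the limit to beyond 5 kb; bins with no stretch are not drawn.

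Leaving out a knockout library compared the controls with 1 knockout at a time, a check chosen after the data were seen. Without knockout 1, both controls and not knockout 2 shared 59.6 Mb in such intervals, against 42.2 and 41.1 Mb for the pairs of a control with knockout 2, a ratio of 1.41. Without knockout 2 the control pair had 81.9 Mb against 22.2 and 20.9 Mb, a ratio of 3.68. With the lists as deposited, the excess over the cross-group sets was therefore present against each knockout alone, and larger against the one with less covered sequence. Both controls covered more than either knockout, which enters both ratios, and this check was not made at equal covered length.

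The excess did not hold when the lists were read to other ends. When the strongest peaks of each list were taken up to the same covered length of 413 Mb, there were 6480 control-only intervals (18.04 Mb) against 6360 (17.5 Mb) for control 2 with knockout 2, a ratio of 1.03. This length is that of the whole knockout 1 list, so only the other lists lost their weaker peaks. With 1 limit of −log10 p for all lists, at 1.49, there were 3386 control-only intervals (9.31 Mb), and the ratio to the largest cross-group set was 0.689. The knockout 1 list ends at this limit and stayed whole, while the median peaks of control 1 (1.46) and control 2 (1.47) lay below it. The pair of both knockouts then had 12.96 Mb, more than the control-only set, so this setting does not even out the lists. With 1 limit of −log10 q, at 0.0335, the ratio was 0.191. That limit is the median over all listed peaks and a very lax one, so many listed peaks have a q close to 1. Whether the excess reflects the mark or the ends of the lists cannot be told apart from these files.

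The peaks that carried the members were wide and of ordinary or lower strength. The fold and −log10 p quoted are the authors' own values for each peak. The carrying peaks had a median width of 4524 bp in control 1 and 4513 bp in control 2, against 2353 and 2307 bp for all peaks of those lists, and a member of at least 2000 bp needs a peak at least that wide. Their median −log10 p was 1.44 and 1.45, against 1.46 and 1.47 for all peaks. A −log10 p of 2 was reached at 1.71% of members in control 1 and 2.28% in control 2, against 4.55% and 6.21% of all peaks in those lists. When control peaks had to reach that value and the knockout lists were left whole, there were 10 control-only intervals. Control peaks under cross-group intervals were much alike. For control 1 with knockout 2 the control 1 peaks had 4549 bp and 1.44, and 1.61% of intervals reached 2. For control 2 with knockout 2 the control 2 peaks had 4405 bp and 1.46, and 3.57% reached 2. Wide and weak peaks were thus not particular to control-only intervals.

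Members were mostly parts of control peaks. The median member took up 60.4% of its control 1 peak and 61.0% of its control 2 peak, and it was the whole peak in 11.3% and 12.0% of cases. The median cross-group interval took up 55.9% to 60.2% of its control peak. At 6560 members (50.5%) neither edge touched a knockout peak, at 5377 (41.4%) 1 edge did and at 1052 (8.10%) both did. The nearest knockout peak lay a median of 18 bp away when either library was counted. Taken by library, the median distance was 1743 bp to knockout 1 and 1092 bp to knockout 2. Only 382 members (2.94%) lay 5 kb or more from every knockout peak. In the cross-group sets the same share was 3.11% to 4.32%, so control-only intervals were not farther from the peaks of the libraries that lack them.

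The numbers in the peak names were read as numbering every peak called, including those beyond the 250000 listed, a reading the sources used here do not state. A jump in the numbers between 2 neighbouring listed peaks then counts unlisted, weaker peaks somewhere between them. Around 7595 of 12985 members (58.5%) both knockout libraries had at least 1 unlisted number between the listed peaks on either side. Around 713 (5.49%) neither had one. In the cross-group sets both lacking libraries had unlisted numbers around 49.0% to 54.1% of intervals and neither had one around 4.77% to 9.01%. The share with unlisted numbers in both knockouts was 54.8% for members under 3000 bp, 67.6% from 3000 to under 5000 bp and 79.7% from 5000 bp. The gap between listed peaks is at least as long as the member in it, so this order can follow from gap length alone.

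Taken over all sequence between listed peaks, 30.1% in knockout 1 and 39.2% in knockout 2 held no unlisted number. Around members these shares were 19.1% and 27.9%. The first pair are shares of length and the second shares of members, and both knockouts had the lower share around members. The cross-group sets gave shares of 18.05% to 20.1% in knockout 1 and 26.5% to 27.2% in knockout 2, also below the shares of length. In control 2 they gave 32.8% and 33.3%, below its 35.8%, and in control 1 31.9% and 32.1%, above its 27.5%. Lower shares were thus not particular to control-only intervals.

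The surroundings of members were densely covered in all 4 libraries. Between 20 and 60 kb from a member's centre, peaks covered 32.9% in control 1, 32.7% in control 2, 18.8% in knockout 1 and 27.6% in knockout 2. Each of these is above the library's own mean over the chromosomes (23.8%, 23.4%, 14.7% and 20.5%). Around the intervals of control 2 with knockout 2 the values were close to these, at 31.7%, 31.7%, 18.8% and 27.6%. Coverage in both knockouts had returned near its surrounding level by 6 to 10 kb (19.2% and 28.0%).

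**Figure D3:**
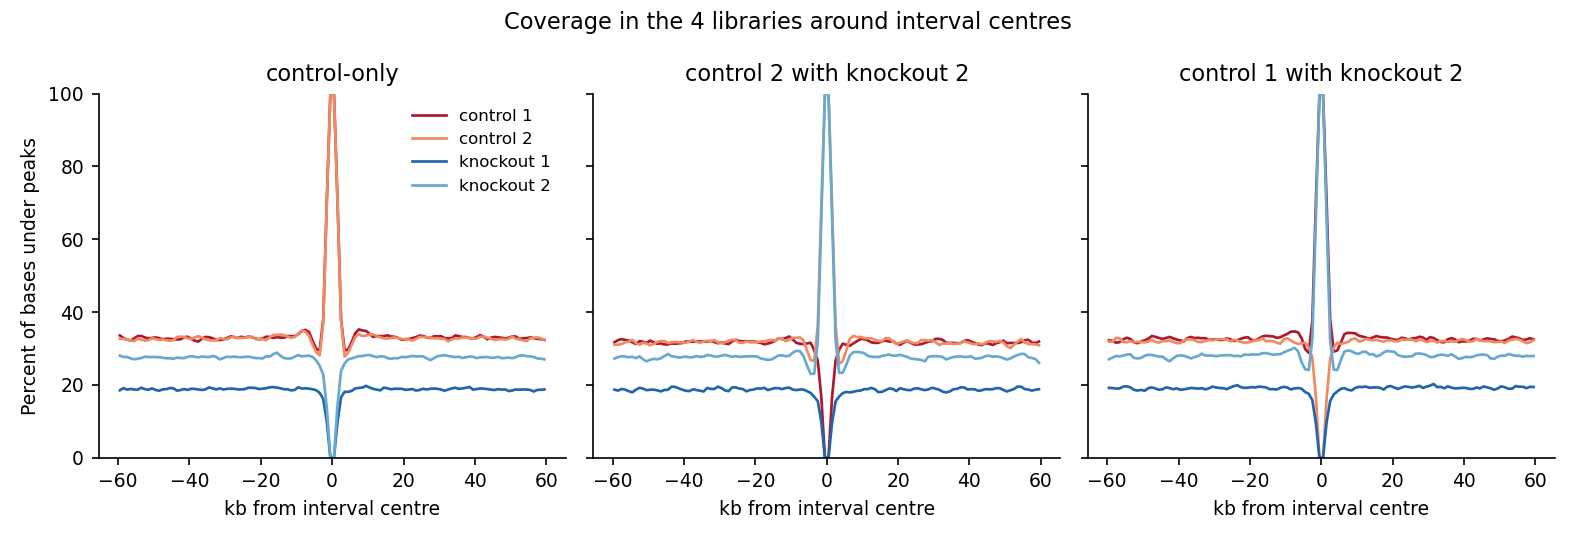
Percent of bases under peaks in each library, in bins of 1 kb, from 60 kb before to 60 kb after interval centres, for the control-only set and the 2 largest cross-group sets. By construction the covering pair stands at 100% and the lacking pair at 0% in the centre, and from 20 to 60 kb the libraries run level, at 32.9%, 32.7%, 18.8% and 27.6% around control-only intervals.

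Members were spread over all 21 chromosomes, in very unequal amounts. Chromosome 7 (2.002% of its length), chromosome 6 (1.999%) and chromosome 1 (1.80%) had the highest shares, with 1149, 1241 and 1635 members. Chromosomes 13 (0.113%), 14 (0.180%) and 22 (0.224%) had the lowest, with 48, 71 and 41. The share followed how much of a chromosome both controls covered, with a Spearman rho of 0.948 over the 21 chromosomes, both measures coming from the same 2 lists. On 19 of the 21 chromosomes the control-only length was above all 4 cross-group sets. The exceptions were 14 (ratio to the largest 0.872) and 22 (0.973), and the highest ratios were on 7 (1.76), 18 (1.66) and 6 (1.64).

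**Figure D4:**
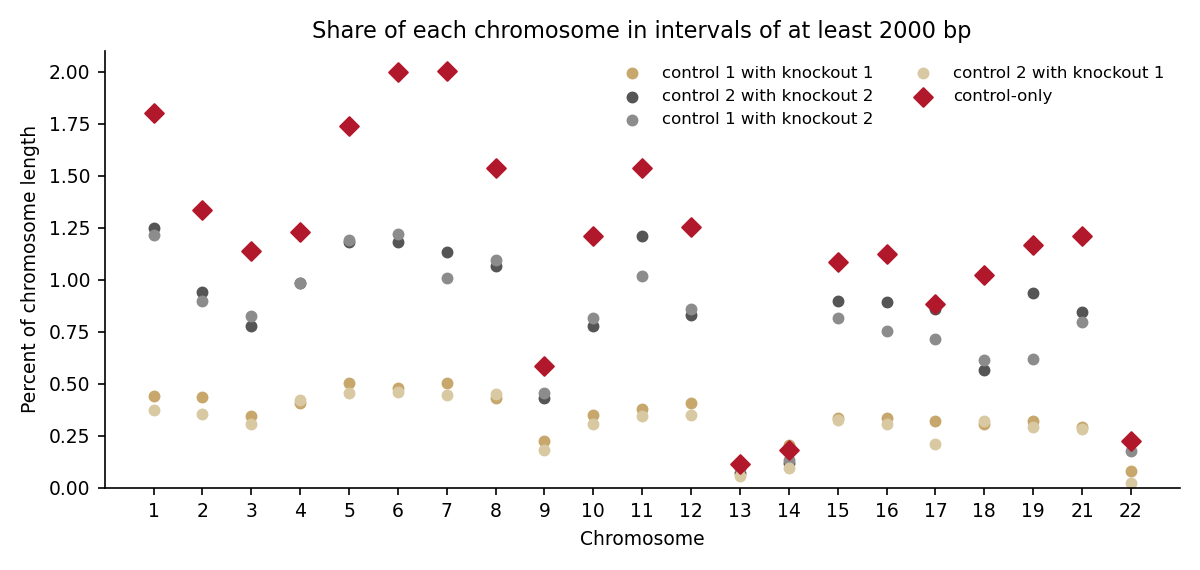
Percent of each chromosome's length in intervals of at least 2000 bp, for the control-only set (diamonds) and the 4 cross-group sets (circles). Chromosomes 6 and 7 stand highest at about 2.00%, and on chromosomes 14 and 22 the diamond does not lie above every circle.

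By chromosome arm, the long arm of chromosome 7 was the densest, with 845 members over 2.34 Mb, or 8.67 per Mb. The short arm of chromosome 5 followed with 394 members (8.55 per Mb), then the short arm of 6 with 468 (7.97 per Mb) and the long arm of 6 with 767 (7.11 per Mb). Arms named here and in the next paragraph were chosen after their values were seen. On 7q the peaks covered 35.8% and 35.5% in control 1 and 2 and 18.3% and 26.7% in knockout 1 and 2. On 5p the values were 35.5%, 35.7%, 17.8% and 26.3%. At the other end, 17p had 5 members, 9p 29 and 13q 48, on arms where control 1 covered 6.95%, 6.33% and 7.99%.

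The arms 7q and 5p also stood high against the cross-group sets under most readings of the lists. On 7q the control-only length was 1.98 times that of the largest cross-group set, the highest of the 36 arms with at least 0.05 Mb in members. The short arm of 18, with 101 members, ranked 2 with 1.82, and 5p ranked 3 with 1.81. The median arm had 1.36. At equal covered length the median arm fell to 0.931, below 1, while 7q had 1.45, 5p had 1.59 and the short arm of 18, a small arm with 64 intervals in that setting, had 1.68. With 1 limit of −log10 p, 7q was the only arm above 1, at 1.07, with 5p next at 0.947 and a median arm of 0.657. With 1 limit of −log10 q no arm was above 1, and 7q (0.294) ranked first of 28 arms with 5p (0.272) the third. Among intervals of 5000 bp or more, 7q held 20 control-only intervals, with a ratio of 5.07, the first of the 9 arms with at least 0.05 Mb in such intervals. The largest cross-group set on 7q came to only 0.0227 Mb there. The 7 intervals on 5p came to less than 0.05 Mb, so 5p was not ranked there. Its ratio was 1.39, below the median of 2.41 over the ranked arms. Differences between arms were not tested, since all arms come from the same 4 lists.

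**Figure D5:**
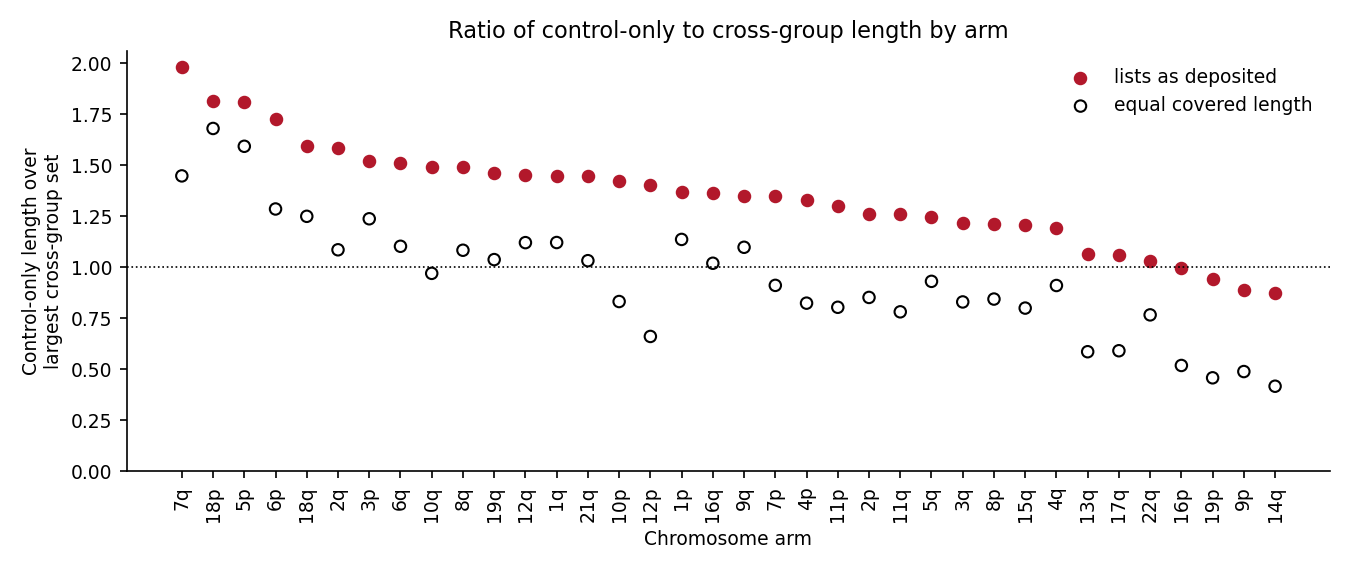
Control-only length over that of the largest cross-group set on each of the 36 chromosome arms with at least 0.05 Mb in members, for the lists as deposited (filled) and for lists cut to equal covered length (open). Most open circles lie near or below the dotted line at 1, while 18p, 5p and 7q stand at 1.68, 1.59 and 1.45.

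Among the chromosome bands of at least 3 Mb, 5p15.1 was the densest in members, with 41 in 3.40 Mb (12.06 per Mb). Control coverage there was 34.6% and 34.5%, and knockout coverage 15.01% and 24.3%. Control 2 with knockout 2 had 19 intervals in it, control 1 with knockout 2 had 11, control 1 with knockout 1 had 2 and control 2 with knockout 1 had 5. Band 7q31.33 came second with 37 members (11.2 per Mb), and 7q31.31 was the fifth with 40 (10.8 per Mb). Of the 10 densest bands, 3 were on chromosome 7 and 2 on chromosome 5, and the median over 412 bands was 5.16 per Mb. Band 7q22.1, which carries CUX1, was not among the densest. It held 41 members in 5.80 Mb (7.07 per Mb, the 110th of 412), with coverage of 31.1% in control 1, 30.7% in control 2, 15.5% in knockout 1 and 22.3% in knockout 2. In that band control 2 with knockout 2 had 25 intervals, control 1 with knockout 2 had 23, control 1 with knockout 1 had 9 and control 2 with knockout 1 had 14.

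Giemsa staining divides chromosomes into light bands, which are gene-rich, and dark bands, which are AT-rich, gene-poor and often at the lamina. Control-only intervals took up 12.99 kb per Mb of light bands and 15.2 and 13.4 kb per Mb of the 2 darkest classes. The darkest classes held 33.05% of member length and 31.8% of all band length. In the cross-group sets the share was 30.8% to 35.02%, so placement by stain did not set the control-only intervals apart. The peaks as a whole were likewise spread almost evenly over stains, with 31.7%, 32.5%, 31.7% and 31.2% of covered length in the darkest classes in control 1, control 2, knockout 1 and knockout 2. Counted by number, 32.7% of members lay in the darkest classes, and 32.9% with a minimum length of 1000 bp. The share was 29.7% at equal covered length, 28.6% with 1 limit of −log10 p and 29.3% with 1 limit of −log10 q. A slight excess in dark bands thus did not hold in those settings.

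A small share of members lay near chromosome ends or at and near centromeres. Within 5 Mb of a chromosome end lay 733 members (5.64%), against 6.56% of chromosome length, with the short arms of the acrocentric chromosomes left out as ends. Inside a centromere band or within 3 Mb of it lay 504 (3.88%), against 7.82% of length. Both shares include the centromere bands themselves, so they do not show how densely the flanks alone were filled. The cross-group sets ranged from 3.94% to 6.02% at the ends and from 3.37% to 3.95% near centromeres.

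Clustering was examined in the 2626 windows of 1 Mb that held a peak of any library. A window held 4.94 members on average and 18 at most, 371 windows (14.1%) had none, and 292 (11.1%) had 10 or more. The 263 densest windows, 10% of all, held 23.5% of the members. The densest 263 windows of each cross-group set held 23.9% to 30.8% of its intervals, and on this measure the control-only set was the least concentrated of the 5. Among these 5 sets the share rose as the number of intervals fell, so sets of unlike size cannot be compared by it. The variance between windows was 2.63 times the mean. A clustering index that does not grow with the number of intervals, the variance less the mean over the squared mean, was 0.330 for the control-only set and 0.251 to 0.294 for the cross-group sets. At equal covered length it was 0.547 against 0.352 to 0.433, while with 1 limit of −log10 q it was 0.581 and one cross-group set had 0.611. All sets were more even where coverage was high. In the 1975 windows with a mean coverage of at least 15%, a limit set once the values were known, the index was 0.0734 for the control-only set and 0.0336 to 0.0940 for the others.

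Neighbouring windows resembled each other more in the control-only set than in any cross-group set. The Spearman rho between counts in 2579 pairs of adjacent windows was 0.613, against 0.189 to 0.485. In the windows of at least 15% coverage it was 0.278 over 1877 pairs, against 0.0109 to 0.135. These are descriptions, since adjacent windows share their lists and the sets differ in number. Of the 263 densest windows of the control-only set, 10% of all windows, between 31 and 43 (11.8% to 16.3%) were also among the densest 263 of a cross-group set. Over all 2626 windows the control-only count had a Spearman rho of 0.348 to 0.566 with the counts of the cross-group sets, which come from the same 4 lists.

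In 1664 of the 2626 windows (63.4%) both controls lay above both knockouts in percent covered, and in 258 of the 263 densest windows (98.1%) they did. The rule used the same difference, so nothing is read from the second share beyond its description. Mean coverage in these 263 windows was 37.2% in control 1, 36.9% in control 2, 19.4% in knockout 1 and 28.8% in knockout 2. With the member bases taken out of the windows the means were 35.1%, 34.8%, 20.02% and 29.7%, and both controls were above both knockouts in 216 windows (82.1%). Control-only stretches under 2000 bp and the rest of the same control peaks are still in these values, and the windows were picked by the members, so they too are a description.

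The 8 windows with most sequence in members were on chromosomes 3, 5 and 2. The first, on chromosome 3 from 44000001 to 45000000 (3p21.31), had 16 members over 51.3 kb, with coverage of 48.2% in control 1, 44.4% in control 2, 20.5% in knockout 1 and 35.1% in knockout 2. The second, on chromosome 5 from 32000001 to 33000000 (5p13.3), had 18 members over 50.7 kb and coverage of 41.5%, 43.4%, 17.4% and 30.9%. In both windows the lower of the controls lay above the higher of the knockouts, as in 131 of the densest 132 windows (99.2%) and 63.4% of all windows. Ranking windows by member length favors this order, so it is only a description. The others, with 44.6 to 47.5 kb each, started at 32000001 and 16000001 on chromosome 3, at 173000001, 42000001 and 15000001 on chromosome 5, and at 150000001 on chromosome 2. The window on chromosome 2 (2q23.3) had coverage of 43.1%, 39.8%, 18.4% and 28.0% in the same order. Of the densest 5% of windows, 21 were on 7q, of its 97, and 11 on 5p, of its 46. No run of 4 or more neighbouring windows was among the densest 5%.

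Slightly more members stood alone than had another member nearby. The median gap between neighbouring members was 103742 bp, 6.25% of gaps were 10 kb or less, and 6707 members (51.6%) had no other within 50 kb. In the cross-group sets, which hold fewer intervals, 62.9% to 84.0% had no other within that distance. Chains of at least 5 members with gaps of up to 50 kb numbered 89, with 490 members (3.77%). Control 2 with knockout 2 had 19 such chains, control 1 with knockout 2 had 18, control 2 with knockout 1 had 1 and control 1 with knockout 1 had 0. A set with more intervals also has shorter gaps. The longest chains had 8 members. One of them, named after its values were seen, spanned 226131 bp on chromosome 3 from 44411947 to 44638077 and had 12.3% of its bases in members. Its coverage was 53.8% in control 1, 48.1% in control 2, 23.3% in knockout 1 and 27.04% in knockout 2. Of the cross-group sets, control 2 with knockout 1 had 1 interval in it and the others had 0. On 7q33, from 133630063 to 133792952, a chain of 8 members had 48.9%, 44.3%, 22.7% and 27.8%. It held 2 intervals of control 1 with knockout 2 and 0 of each other cross-group set. The chain of 8 on 2q32.1 held 1, of control 1 with knockout 1. That on 1q25.3 held 2 of control 1 with knockout 1, 2 of control 2 with knockout 2 and 1 of control 1 with knockout 2. That on 5p13.3 held 2 of control 2 with knockout 2 and 1 of control 1 with knockout 2. Control-only members picked the chains, so these counts are a description.

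The 5 longest members lay on chromosomes 1, 18, 11 and 7. The longest, on chromosome 1 from 86066889 to 86076743 (1p22.3), was a whole peak of control 2 (9855 bp, −log10 p 1.36, fold 1.65) inside a peak of 19148 bp in control 1 (−log10 p 1.43, fold 1.76). The nearest peak of knockout 2 was 267 bp away and that of knockout 1 3277 bp away, with 2 and 3 unlisted numbers across the member. The next, on chromosome 18 from 35630076 to 35639366 (18q12.2), was 9291 bp long and touched a knockout 1 peak. A member of 8473 bp on chromosome 11, from 42685801 to 42694273 (11p12), was a whole peak of control 1 and lay 1627 and 2296 bp from the nearest knockout peaks. The member of 8213 bp on chromosome 1 from 185097749 to 185105961 (1q25.3) was the farthest of the 5 from both knockouts, at 7566 and 9821 bp, with 5 and 2 unlisted numbers. On 7q36.1, from 149816547 to 149824399, a member of 7853 bp touched a knockout 1 peak and lay 9107 bp from the nearest of knockout 2. In none of the 5 did either control peak reach a −log10 p of 2, and all 5 had unlisted numbers in both knockouts.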

How the data were processed

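Each of the 4 libraries has its own list of broad H3K9me2 peaks, deposited by the authors without pooling. The submitters' processing notes name build hg19, MACS2 (2.1.0), BWA (0.7.17), deepTools (3.5.1) and SAMtools (1.16.1), in no stated order. Settings, filters and the use of a background library are not given in the sources used here. Each deposited peak carries the authors' −log10 p, −log10 q, score (the −log10 p times 10, cut to whole numbers) and fold, a ratio to the background their caller estimated. They were used only to describe, rank or filter peaks.

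Positions were turned into covered bases with numpy 2.4.6 and pandas 2.3.3 in Python 3.11.15, and coordinates are hg19 counted from 1. In each list 0 autosomes had a peak past the hg19 end (lengths from GenomeInfoDb 1.38.1). Bands came from the hg19 table in circlize 0.4.16. No hg19 genome or gene annotation was used here, so genes and sequences at the intervals are not given. Interval building was tested on simulated lists, in which all 109 planted control-only intervals were recovered at their edges. No test was run, because the libraries' coverage chose the members. The members, arms and comparisons were chosen with earlier results of these data known. Regions named were the 5 longest members, the 8 windows with most member length, any run of 4 or more windows among the densest 5%, and the 3 chromosomes with the highest and the 3 with the lowest share. Any other arm, band or chain was picked with its values in view. Chromosome 20 was left out by the rule.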

Additional observations from a re-analysis of the deposited data

How the results depend on the processing

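The number of control-only intervals, 12989, was 13292 with chromosome 20 and 12594 when whole control 1 peaks that overlapped a control 2 peak and no knockout peak were counted. It was 3906 with an overlap of at least 50% of both peaks, 43332 and 232 with a minimum length of 1000 and 5000 bp, 20011 with gaps up to 2000 bp filled, 3386 and 1914 with 1 limit of −log10 p or −log10 q, 6480 at equal covered length, and 10 with control peaks of −log10 p of at least 2. Leaving out 1 library gave 20802 to 62325, since fewer conditions then define an interval. The length ratio to the largest cross-group set, 1.44, was 1.29, 1.44 and 1.47 with a minimum of 1000 bp, filled gaps and chromosome 20, and 2.46 with a minimum of 5000 bp. It was 1.03 at equal covered length, and 1.41 and 3.68 without knockout replicate 1 and 2. It turned below 1 with 1 limit of −log10 p (0.689), with 1 limit of −log10 q (0.191), and with control peaks of −log10 p of at least 2 (0.00731), where 2 lists were shortened and 2 were whole. The 1 limit of −log10 p and the equal covered length each left the knockout 1 list whole and shortened the others. On the arms, which were followed only after their values were seen, the ratio of 1.81 on 5p became 0.947 and 0.272 with the limits of −log10 p and −log10 q, and that of 1.98 on 7q became 1.07 and 0.294. The cause of these turns was not tested. No ratio was formed without a control library, and arms with under 0.05 Mb in members were not ranked. No paired analysis was possible because the results are counts and ratios with no fitted test that a replicate block could enter; the sets of same-numbered libraries stand among the cross-group sets. Depth is unknown, and each list ends at its own strength, so weak peaks beyond the ends limit every statement of absence.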
